A study of Mus musculus with 9 samples.

Results

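The chloride intracellular channel (Clic) family was followed as 5 genes, Clic1, Clic3, Clic4, Clic5 and Clic6, in bulk RNA sequencing of mouse cochlear ducts at E14.5. The members were taken by name, matched from the Ensembl identifier of each counted gene to its mouse symbol, and all 5 were found among the 54232 genes of the count tables. The study compared WT (Prdm16 +/+), heterozygote (Prdm16 cGT/+) and null (Prdm16 cGT/cGT) littermates, with 3 embryos per genotype and 1 library from both inner ears of each embryo. The cGT allele is a gene trap null allele present in every cell of the embryo, so the loss is not limited to the cochlea, and the strain was kept on an FVB/NJ background. The p-values measure the spread between littermate embryos. Prdm16 encodes a transcriptional regulator that marks Kölliker's organ, the block of epithelium beside the future organ of Corti.

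CLIC proteins are small globular proteins with a fold like that of glutathione transferases, and they exist both free in the cytoplasm and attached to membranes. CLIC5 sits at the base of the hair cell bundle with ezrin and radixin, which tie actin to the membrane, and mice without it lose hearing and balance. CLIC6 carries a long extension before the shared domain, CLIC1 and CLIC4 are made in many cell types, and CLIC3 is made in few.

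The 5 genes share a coding region that is alike but not identical, and the stretch below was chosen because it shows how far the members can be told apart by their reads. Each line holds 90 bases of the coding sequence of the GENCODE transcript with the longest open reading frame, 5′ to 3′, for 4 members, starting at coding base 166 in Clic3, 202 in Clic4, 193 in Clic5 and 1234 in Clic6. Capitals mark the 44 positions at which the 4 members shown hold the same base.

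Clic3: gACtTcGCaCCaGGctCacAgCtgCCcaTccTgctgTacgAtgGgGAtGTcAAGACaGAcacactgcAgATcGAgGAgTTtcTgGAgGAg
Clic4: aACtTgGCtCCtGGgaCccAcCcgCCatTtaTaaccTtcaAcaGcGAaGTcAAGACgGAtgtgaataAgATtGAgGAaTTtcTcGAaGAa
Clic5: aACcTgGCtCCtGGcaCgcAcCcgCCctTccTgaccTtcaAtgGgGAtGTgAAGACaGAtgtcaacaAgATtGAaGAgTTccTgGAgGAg
Clic6: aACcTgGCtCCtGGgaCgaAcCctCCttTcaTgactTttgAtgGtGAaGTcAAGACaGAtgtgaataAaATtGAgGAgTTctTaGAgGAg

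In this window Clic5 matched Clic6 at 73 of 90 bases, Clic4 at 69 and Clic3 at 55. Over the aligned coding sequences, identity ranged from 60.1% between Clic3 and Clic4 to 72.6% between Clic4 and Clic5, and Clic5 and Clic6 were identical at 69.1% of 747 aligned bases. The coding sequence of Clic6 has 1791 bases against 714 to 762 in the other members, and the part of it that aligns to Clic4 begins at base 1043. The longest run shared by any pair of members was 23 bases, between Clic4 and Clic5, and no stretch of 50 bases, the read length, occurred in 2 members. Reads of one member could therefore not match another without mismatches. Clic6 lies on chromosome 16 of mm10 from 92485736 to 92541243, Clic5 on chromosome 17 from 44188584 to 44280172, Clic1 on chromosome 17 from 35049966 to 35058749, Clic3 on chromosome 2 from 25456838 to 25458776, all on the plus strand, and Clic4 on chromosome 4 from 135213969 to 135272814 on the minus strand. All 5 are protein coding, and their exons share 0 bases with those of any other annotated gene.

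The study also chose a primer pair for each of Clic6 and Clic5 for quantitative PCR. It reported both genes lower in null cochleae by these assays, and Clic6 lower within Kölliker's organ by RNA in situ hybridization. The pairs show which part of each transcript the assays read.

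Clic6 forward: ctctgggttagactctcaggg
Clic6 reverse: ggtgcctctgtgtccatgtt
Clic5 forward: atgacggactcagcgacaac
Clic5 reverse: gtagatcggctggctttctttt

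Both Clic6 primers lie in coding sequence of exon 1 of the main transcript (chromosome 16, 92498831 to 92498851 and 92499006 to 92499025), which is part of the long extension that the other members lack. The Clic5 pair lies in coding sequence of exon 1 (chromosome 17, 44188899 to 44188918) and across the junction of exons 2 and 3. The sequencing counts reported here cover all exons of each gene.

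Total counts per library ranged from 24095322 to 30819118, and all 5 members passed the filter on low counts in each comparison. Values are counts scaled by library size (CPM) after TMM normalization, given per library and as mean ± SD over 3 embryos, and a count of 3, taken as the floor of a library, is 0.0968 to 0.126 CPM for counting error alone. Prdm16 itself was at 184 to 225 CPM in WT, 123 to 151 CPM in heterozygote and 19.1 to 27.4 CPM in null ducts, so each library was on the side of its label. Markers of the cochlear epithelium were present in all libraries, while those of mesenchyme differed widely between libraries of 1 genotype. The summed level of 7 mesenchyme genes was 813 CPM in WT 2 and 1490 CPM in null 3, against 35.8 to 406 CPM in the other 7 libraries.

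Clic6 and Clic5 were lower in null than in WT ducts, and Clic1, Clic3 and Clic4 did not pass the test. Clic6, the most abundant member per length in WT, fell to 29.5% and Clic5 to 47.4% of the WT mean. A gene was called when its edgeR adjusted p lay below 0.05 and its log2 fold change was larger than 0.5 in size. Of the 5 members 2 met this rule, both lower, where 0.786% of the 17168 tested genes were called lower and 0.920% higher. Likewise 2 of the 5 members were lower in every null than in every WT duct, against 8.95% of all tested genes.

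**Figure D1:**
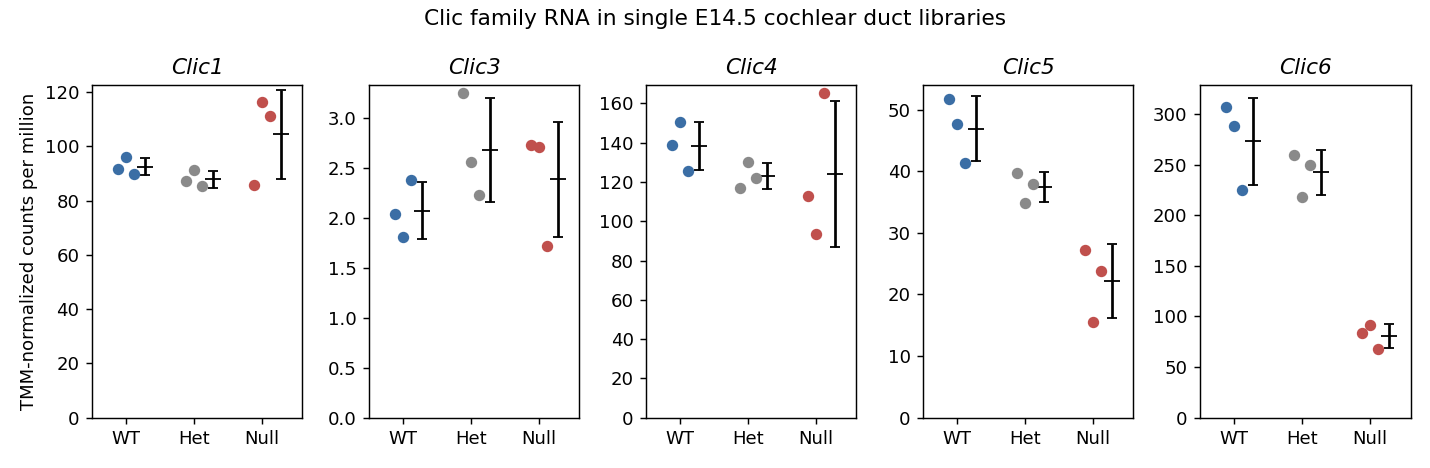
TMM-normalized CPM of each Clic gene (y axes, one scale per gene, from 0) in WT, Het (heterozygote) and Null libraries (x axes); each point is 1 embryo and the bar beside it is the mean ± SD of 3 embryos. The null points of Clic6 (67.4 to 91.2 CPM) and Clic5 (15.6 to 27.2 CPM) lie below all WT and heterozygote points, while those of Clic1, Clic3 and Clic4 overlap them.

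Clic6 was at 307, 288 and 225 CPM in WT ducts 1, 2 and 3, at 260, 218 and 250.1 CPM in heterozygotes, and at 83.4, 91.2 and 67.4 CPM in null ducts. The null values lay well below the rest, and the WT and heterozygote ranges overlapped. The null ducts differed from WT by -1.76 on the log2 scale (SE 0.15, 95% interval -2.11 to -1.42, edgeR adjusted p = 0.00254), SE being the standard error of the fit. The change was called in all 6 fits that each left out 1 embryo, with values from -1.88 to -1.65. Against heterozygotes the difference was -1.59 (SE 0.122, edgeR adjusted p = 0.00243). Clic6 was the only member that edgeR called in null against heterozygote, in which 0.322% of 17067 tested genes were called lower. Clic6 and Clic5 were lower in every null than in every heterozygote duct, as were 9.10% of tested genes.

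Clic5 was at 51.8, 47.7 and 41.4 CPM in WT, 39.7, 34.8 and 37.9 CPM in heterozygote and 27.2, 15.6 and 23.9 CPM in null ducts. The 3 ranges did not overlap, with heterozygotes between WT and null. The log2 difference of null from WT ducts was -1.08 (SE 0.201, 95% interval -1.55 to -0.62, edgeR adjusted p = 0.0444). The adjusted p was 0.203, 0.206 and 0.0959 without WT 1, WT 2 or WT 3 and 0.0575 without null 1, while the value stayed between -1.26 and -0.88 in all 6 fits that each left out 1 embryo. Between null and heterozygote ducts Clic5 was at -0.76 on the log2 scale (SE 0.19), not called by edgeR (adjusted p = 0.179) but called by DESeq2 (adjusted p = 0.00467).

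Clic1, a member found in most cell types, was at 91.6, 96.3 and 89.95 CPM in WT, 87.2, 91.4 and 85.3 CPM in heterozygote and 85.8, 116 and 111 CPM in null ducts. Null 2 and null 3 were above all other libraries and null 1 was among the lowest, so the groups overlapped. Null and WT differed by 0.17 on the log2 scale (95% interval -0.10 to 0.44, edgeR adjusted p = 0.629), and the interval does not reach down to the values of Clic5 or Clic6. Without 1 embryo the value ranged from 0.09 (without null 2) to 0.29 (without null 1).

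Clic4, which is rich in vessels and connective tissue, was at 139, 150.5 and 126 CPM in WT, 117, 130.4 and 122 CPM in heterozygote and 113, 93.6 and 165.5 CPM in null ducts. The null ducts spread more widely (coefficient of variation 30%, against 8.95% in WT and 5.45% in heterozygotes), from the lowest to the highest value of all 9 libraries. Null and WT differed by -0.16 on the log2 scale (95% interval -0.61 to 0.29, edgeR adjusted p = 0.787). Within each of the 3 genotypes the order of the libraries by Clic4 was the order of their summed mesenchyme genes, which held for Clic1 in 1 genotype and for the other members in 0. The order by summed endothelial genes matched that of Clic4 in 1 of 3 genotypes. How many of all tested genes match either order was not counted, so these matches are a description only. Null 3 had the highest value of Clic4 and of the mesenchyme sum, and the part of either tissue in the level of Clic4 was not tested. Without WT 2 and null 3, the libraries of highest mesenchyme level, Clic4 was at -0.35 (edgeR adjusted p = 0.402), a choice made after the values were seen.

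Clic3 was the scarcest member, with 41 to 84 reads per library. It was at 2.04, 1.80 and 2.37 CPM in WT, 3.25, 2.56 and 2.23 CPM in heterozygote and 2.72, 2.71 and 1.72 CPM in null ducts. All 3 ranges overlapped, and null differed from WT by 0.20 on the log2 scale with a wide 95% interval, from -0.42 to 0.82 (edgeR adjusted p = 0.813). Without 1 embryo it ranged from 0.10 (without null 1 or null 2) to 0.39 (without null 3).

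**Figure D2:**
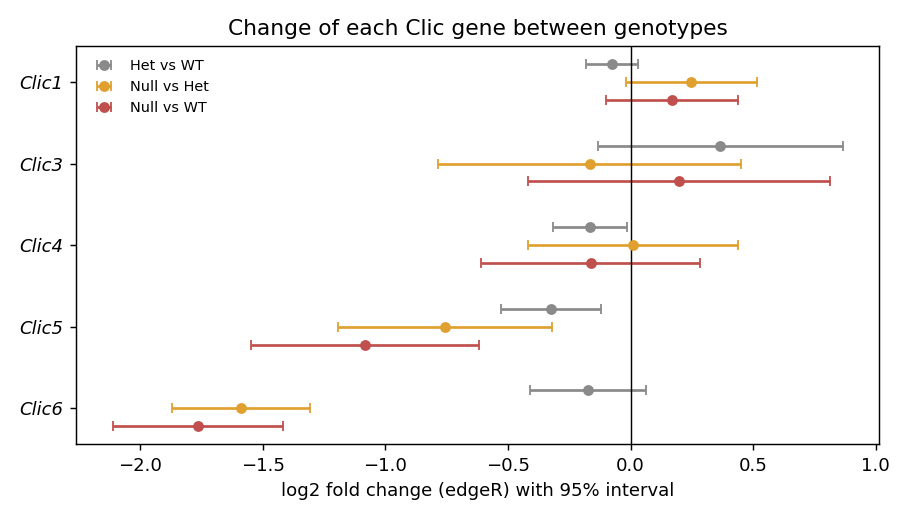
Log2 fold change with its 95% interval from edgeR (x axis) of each Clic gene (y axis) in heterozygote against WT, null against heterozygote and null against WT. The intervals of Clic6 and Clic5 lie below 0 in null against WT (-1.76 and -1.08), and those of Clic1, Clic3 and Clic4 include 0 in that comparison.

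Heterozygotes were compared with WT to ask whether loss of 1 Prdm16 allele changes the family. None of the 5 members was called by edgeR or by DESeq2, in a comparison where 0.151% of 17269 tested genes were called by edgeR, and 2 of 5 had an unadjusted p under 0.05, against 13.1% of all tested genes. Clic5 had the lowest value, -0.33 on the log2 scale (SE 0.091, 95% interval -0.53 to -0.12, edgeR adjusted p = 0.151), and in DESeq2 its adjusted p was 0.0252 at the same value, short of the fold change rule. All 3 heterozygote values of Clic5 lay below all WT values, as did those of 8.99% of tested genes. Clic6 was at -0.17 (95% interval -0.41 to 0.06, edgeR adjusted p = 0.543) and kept 88.7% of its WT mean in heterozygotes. Its value ranged from -0.30 without WT 3 (edgeR adjusted p = 0.0413, short of the fold change rule) to -0.08 without WT 1. Clic4 was at -0.17 (edgeR adjusted p = 0.327), Clic1 at -0.07 (edgeR adjusted p = 0.559) and Clic3 at 0.37 (edgeR adjusted p = 0.541).

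A linear term for the number of intact Prdm16 alleles (0, 1 or 2) was fitted across all 9 libraries. Clic6 rose by 0.88 on the log2 scale per allele (SE 0.157, edgeR adjusted p = 0.0122) and Clic5 by 0.54 (SE 0.0951, edgeR adjusted p = 0.0113), while 1.22% of 17277 tested genes were called as rising with allele number. The Clic6 trend missed the threshold without null 1 or null 2 (edgeR adjusted p = 0.0617 and 0.0532), and the Clic5 trend without WT 1 (0.0505). Clic1, Clic3 and Clic4 had trends of -0.09, -0.10 and 0.08 that were not called, although Clic4 passed without null 3, at 0.21 (edgeR adjusted p = 0.0334). The heterozygote level of Clic6 lay 0.71 above the midpoint of WT and null on the log2 scale (95% interval 0.45 to 0.96, unadjusted 9.11e-05, edgeR adjusted p = 0.177). Clic6 was the 1 member of 5 with an unadjusted p under 0.05 there, against 6.94% of all genes. In that contrast 2 of 17797 genes (0.0112%) were called, of which Prdm16 was one, at 1.01 (edgeR adjusted p = 0.0228). Clic5 lay 0.22 above the midpoint, with an interval from -0.12 to 0.55 that includes 0.

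To compare the members with each other, CPM was divided by the length of all annotated exons of each gene in kilobases. In WT the order was Clic6 (69.9 ± 10.98 CPM per kb, SD, n = 3), Clic1 (51.5 ± 1.82), Clic4 (21.04 ± 1.88), Clic5 (5.34 ± 0.598) and Clic3 (2.05 ± 0.283), with no overlap of neighbours in this order among the 3 WT ducts. Among 17784 genes, 97.7% lay below Clic6, 96.3% below Clic1, 85.6% below Clic4, 53.8% below Clic5 and 36.3% below Clic3 on this scale. In null ducts Clic1 came first (58.1 ± 9.11 CPM per kb), ahead of Clic6 (20.6 ± 3.10) and Clic4 (18.9 ± 5.66), which overlapped, and Clic5 (2.53 ± 0.682) and Clic3 (2.36 ± 0.571) overlapped too. Heterozygotes kept the WT order (62.0 ± 5.64 for Clic6, 48.9 ± 1.72 for Clic1 and 18.7 ± 1.02 for Clic4).

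The summed level of the family was 149.8 ± 13.9 CPM per kb (SD, n = 3) in WT, 136.5 ± 3.85 in heterozygote and 102.5 ± 9.12 in null ducts. Without Clic6 the sum was 79.9 ± 3.71 in WT, 74.6 ± 2.34 in heterozygote and 81.8 ± 10.5 in null ducts, and these sums overlapped between the genotypes. Clic6 made up 43.0 to 49.5% of the family in WT ducts and 15.8 to 23.2% in null ducts. Clic1 held 32.1 to 37.4% in WT and 51.8 to 60.6% in null ducts, and Clic5 held 3.45 to 3.72% and 1.66 to 3.37%. These shares are given as a description without a test, and an exact two-sided permutation test of 3 against 3 embryos could not go below 0.1. The ratio of Clic6 to Clic5 CPM, not scaled for length, was 5.44 to 6.05 in WT and 6.25 to 6.60 in heterozygote ducts. It was 3.06, 5.85 and 2.82 in null ducts 1, 2 and 3, so null 1 and null 3 lay below the other 7 libraries and null 2 lay within the WT range.

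**Figure D3:**
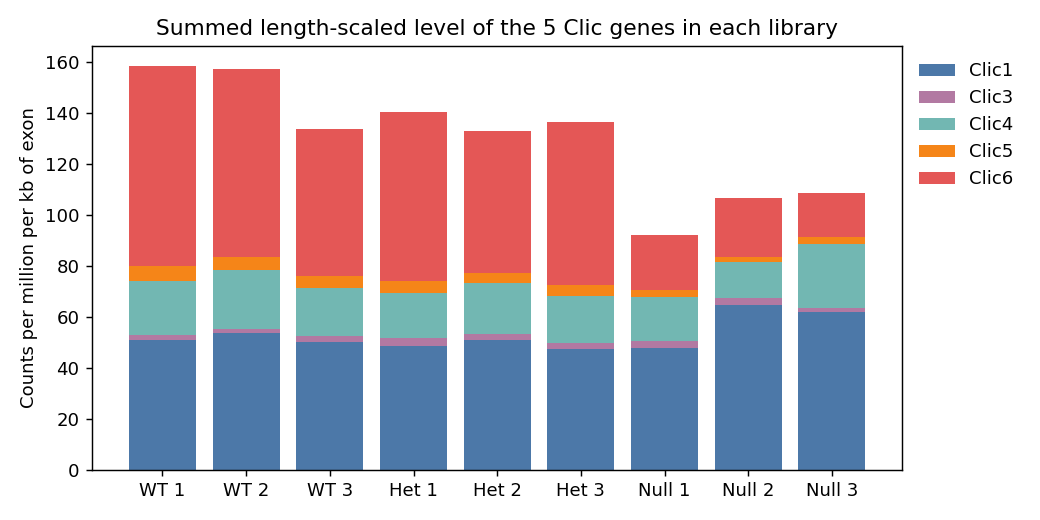
Summed CPM per kilobase of exon of the 5 Clic genes (y axis, linear from 0) in each of the 9 libraries (x axis), with 1 colour per gene. The Clic6 block shrinks from 57.5 to 78.5 CPM per kb in WT to 17.2 to 23.3 CPM per kb in null libraries, while the rest of each bar stays between 70.7 and 91.5 CPM per kb.

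The genes whose profile was most like that of Clic6 were found by the root mean square difference of log2 CPM over the 9 ducts, each gene centred on its own mean, among 17796 tested genes. Snap91, a clathrin coat protein of synaptic vesicle recycling, was nearest at 0.141, with 51.7, 47.6 and 17.1 CPM in WT, heterozygote and null ducts. The paper lists both Snap91 and Clic6 among the genes most enriched in Kölliker's organ in its single-cell data. Efhd1, a calcium-binding protein of mitochondria and one of the Kölliker's organ markers, followed at 0.160 (88.4, 61.8 and 22.5 CPM). B3galt2, a galactosyltransferase (0.192), the unnamed gene Gm35147 (0.224) and Cnga2, a cyclic nucleotide-gated channel subunit (0.231), came next, and the median over all genes was 0.837. The nearest to Clic5 was Dennd4a, an exchange factor for Rab proteins, at 0.108 (64.9, 48.4 and 31.7 CPM), followed by Prkcz2 (0.143), the serotonin receptor gene Htr1d (0.162), Nhsl2 (0.162) and Tns3 (0.166), a tensin of focal adhesions at 299, 228 and 148 CPM, against a median of 0.562. The likeness of Clic5 and Clic6 to each other was 0.444, so neither was among the nearest genes of the other. These genes were picked for their likeness, so it carries no test.

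**Figure D4:**
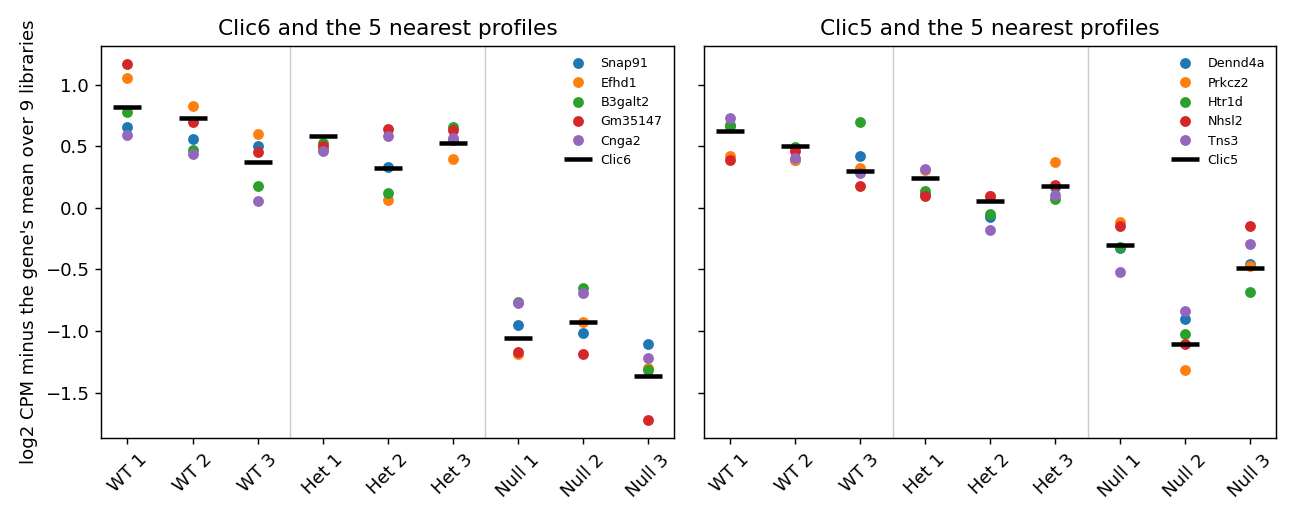
Log2 CPM minus the gene's mean over 9 libraries (y axis) in each library (x axis) for Clic6 (left) and Clic5 (right), drawn as black dashes, and for the 5 genes of nearest profile, drawn as coloured points. The Clic6 panel steps down between heterozygote and null libraries, while in the Clic5 panel the dashes of Clic5 lie between WT and null in heterozygote libraries, 3 of the 5 other genes have a heterozygote point above a WT point, and null 2 is lowest.

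The nearest tested gene on each side of each member was taken, a rule added after the data were seen. Of these 10 neighbours edgeR called 1 between null and WT, lower, against 0.786% of all tested genes. The non-coding gene 2410124H12Rik (chromosome 16, 92478742 to 92497366, plus strand) overlaps the first part of the annotated Clic6 gene on the same strand, without shared exon bases, and ends before the main Clic6 transcript starts at 92498134. It was at 7.74, 5.68 and 4.44 CPM in WT, 5.22, 3.53 and 5.01 CPM in heterozygote and 0.454, 0.936 and 0.502 CPM in null ducts. The null ducts were below all others, with at -3.21 against WT on the log2 scale (SE 0.36, edgeR adjusted p = 0.00609). Between heterozygote and WT it was at -0.38 (edgeR adjusted p = 0.539). Reads of 2410124H12Rik and of unannotated upstream parts of Clic6 cannot be told apart in gene counts.

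Clic6, Clic5 and Clic4 each lie in a cluster with a Rcan gene, an inhibitor of the phosphatase calcineurin, and a Runx transcription factor gene, a layout that stems from ancient duplication of one chromosome region. Rcan1, 14.9 kb from Clic6, had 55.3 ± 1.44 CPM (SD, n = 3) in WT and 51.3 ± 10.3 in null ducts, at -0.12 on the log2 scale (edgeR adjusted p = 0.795). On the same scale Rcan2, 149 kb from Clic5, was at 0.21 (edgeR adjusted p = 0.487), and Rcan3, 139 kb from Clic4, at 0.19 (edgeR adjusted p = 0.502). Runx1 (1.68 ± 0.62 CPM in WT and 11.5 ± 17.6 in null ducts) and Runx2 (1.38 ± 0.586 and 2.48 ± 3.51 CPM) had null SDs above their means and were not called (edgeR adjusted p = 0.428 and 0.79), and Runx3 did not pass the filter on low counts. None of these 5 tested Rcan and Runx genes was called by edgeR.

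Genes that move chloride by other means were looked at beside the family. Of 37 other chloride channel genes, 27 were tested between null and WT, and edgeR called none in either direction. Of the 27, 3 had an unadjusted p under 0.05, against 12.2% of all tested genes, and DESeq2 called 1, against 3.55% of all. The log2 differences were above 0 in 11 and below 0 in 15, with a median of -0.02, against 0.01 over all genes. Ttyh3, of the tweety family of proposed anion channels, had 501 ± 9.74 CPM (SD, n = 3) in WT and 491 ± 36.1 in null ducts, Clcn2, a ClC channel opened by hyperpolarization, 122 ± 3.6 and 141 ± 14.2 CPM, and Lrrc8b, a volume-regulated channel subunit, 109 ± 2.66 and 106 ± 11.1 CPM. Of 21 chloride cotransporters and exchangers, 18 were tested and edgeR called 0, with 5 of 18 at an unadjusted p under 0.05, 2 called by DESeq2 and a median of -0.13, to be read against the same shares of all genes. The closest to the threshold was Slc12a2, the sodium, potassium and chloride cotransporter that later feeds the stria vascularis. It had 202 ± 16 CPM in WT, 152 in heterozygote and 136 ± 20.9 in null ducts, or -0.58 on the log2 scale in null against WT (SE 0.118, edgeR adjusted p = 0.0593) and -0.41 in heterozygote against WT (SE 0.0636, edgeR adjusted p = 0.0465, below the fold change threshold). Slc4a2, a chloride and bicarbonate exchanger, was at 0.08 and Slc12a7, a potassium and chloride cotransporter, at -0.18, neither called. In heterozygotes against WT, edgeR and DESeq2 called 0 of 28 tested channels and 0 of 18 transporters, with 3 of each at an unadjusted p under 0.05, against 13.1% of all tested genes.

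Of 9 genes for ezrin family linkers and hair bundle base proteins, 1 was called higher between null and WT, against 0.920% of all tested genes. Podxl, a sialomucin that binds ezrin through NHERF adaptors, rose from 161 ± 13.1 CPM (SD, n = 3) to 232 ± 11.8 CPM, or 0.52 on the log2 scale (SE 0.0836, edgeR adjusted p = 0.0251). Ezr and Rdx, the ezrin and radixin genes, named here after their values were seen, were at -0.01 and 0.00, with 334 and 227 CPM in WT and 334 and 229 CPM in null ducts. The list's median was 0.00. In heterozygotes against WT edgeR and DESeq2 called 0 of 8 tested genes of this list, with 4 at an unadjusted p under 0.05, against 13.1% of all tested genes. The omega class glutathione transferases, which share the CLIC fold, were not called by edgeR or DESeq2 and 0 of 2 had an unadjusted p under 0.05, with Gsto1 at -0.25 (edgeR adjusted p = 0.74) and Gsto2 at -0.75 (edgeR adjusted p = 0.674).

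**Figure D5:**
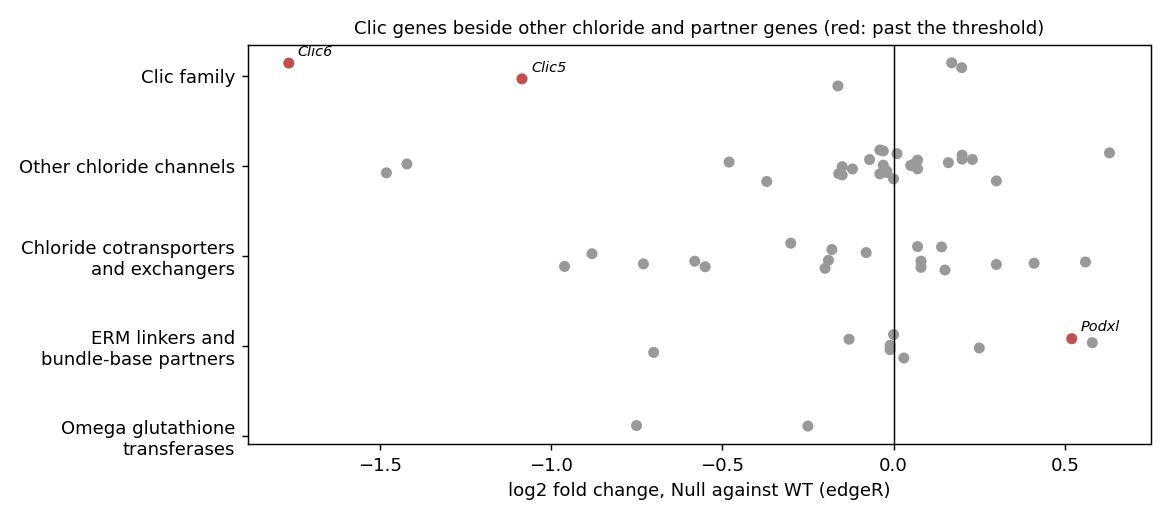
Log2 fold change between null and WT from edgeR (x axis) of each tested gene in the Clic family and in 4 lists of related genes (y axis), with 1 point per gene, spread vertically for legibility, and called genes in red with their names. Clic6 (-1.76), Clic5 (-1.08) and Podxl (0.52) are called by edgeR, and 0 of the 27 other chloride channels and 18 transporters are.

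The falls of Clic6 and Clic5 stood beside changes in markers of the duct's domains, and in bulk RNA fewer cells of a type and less RNA per cell cannot be told apart. All 6 Kölliker's organ markers (Fgf10, Tecta, Efhd1, Itga8, Gsn and Calb1) were called lower in null than in WT, against 0.786% of all tested genes, with a median log2 fold change of -2.06, and their summed level ranged from 3160 to 4000 CPM in WT and from 1620 to 1840 CPM in null ducts. The study singled out genes of this list and of the prosensory list in these libraries, so their direction is not independent evidence. In heterozygotes against WT edgeR called 1 of the 6, Gsn, lower, where 0.151% of all tested genes were called in either direction. DESeq2 called 2 of the 6, against 1.73% of all, and 4 had an unadjusted p under 0.05 in edgeR, against 13.1%. The heterozygote sum was 2890 to 3650 CPM. Most of the Kölliker's organ sum was Tecta, at 2880 CPM on average in WT and 1520 CPM in null ducts. Within genotypes, the order of the libraries by this sum was that of Clic6 in 2 of 3 genotypes and that of Clic5 in 2 of 3. How many of all tested genes match it as often was not counted, so these matches are a description only. Of 6 prosensory markers 3 were called higher (Fgf20, Lfng and Cdkn1b), and of 5 hair cell markers 1, Myo7a, at 1.08 (edgeR adjusted p = 0.0257), against 0.920% of all tested genes called higher. The hair cell list had 3 genes above and 2 below 0, with Atoh1 at -0.29 and Pou4f3 at -0.27 (edgeR adjusted p = 0.688 and 0.875), both named after their values were seen. Of the 4 roof and 2 outer sulcus markers edgeR called 0, with 4 and 1 at an unadjusted p under 0.05, against 12.2% of all tested genes. DESeq2 called 1 and 0, against 3.55% of all. The sums were 7510 to 8770 and 476 to 566 CPM in WT and 10400 to 13800 and 564 to 769 CPM in null ducts. Nearly all of the roof sum was Oc90, at 7810 CPM on average in WT and 11300 CPM in null ducts (0.53 on the log2 scale, edgeR adjusted p = 0.219). The part of these domains in the change of Clic6 and Clic5 was not tested.

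Markers of tissue outside the duct epithelium are given because several Clic genes are made there. Endothelial markers (8 genes) summed to 5.42 to 97.7 CPM in WT, 6.20 to 9.35 in heterozygote and 4.84 to 54.1 CPM in null ducts, and macrophage markers (7 genes) to at most 18.3 CPM. Markers of the choroid plexus (3 genes), a brain tissue rich in Clic6, summed to 15.5 to 24.5 CPM in WT and 25.3 to 37.3 CPM in null ducts, nearly all of it Ttr (19.9 and 28.5 CPM on average), with Folr1 and Kcne2 at 0.213 and 0.355 CPM in WT and 0.368 and 0.478 CPM in null. Their part in the level of Clic6 was not tested. Cartilage markers (4 genes) were at 1900 to 1990 CPM in WT and 1990 to 3700 in null, glial markers (5 genes) at 1480 to 1570 and 1410 to 1610, melanocyte markers (5 genes) at 55.2 to 132 and 12.2 to 42.9, and neuronal markers (6 genes) at 18.7 to 27.8 and 12.4 to 35.7 CPM. No gene of these lists was at 0 in all libraries, and edgeR called only Stmn2, a neuronal gene, lower in null at -2.96 (edgeR adjusted p = 0.00343) and in heterozygote ducts at -1.42 (edgeR adjusted p = 0.0107). Over all tested genes edgeR called 0.786% lower in null ducts and 0.151% in either direction in heterozygote ducts. In null ducts DESeq2 also called 3 of 5 tested melanocyte genes, against 3.55% of all tested genes. All 5 had an unadjusted p under 0.05 in edgeR, against 0 of 8 endothelial genes, 0 of 7 macrophage genes and 12.2% of all tested genes. In heterozygotes against WT, where DESeq2 called 1.73% of all tested genes, it called 3 of 7 tested endothelial, 4 of 5 macrophage, 4 of 5 melanocyte, 4 of 7 mesenchyme, 2 of 5 neuronal and 1 of 4 cartilage genes, and the median log2 differences by edgeR were -2.94, -2.40, -1.68 and -3 in the first 4 of these lists. The part of these tissues in the heterozygote values of the Clic genes was not tested. Without WT 2 and null 3, chosen for their mesenchyme level after the values were seen, Clic6 was still called at -1.60 (edgeR adjusted p = 0.0162) and Clic5 was not, at -1.12 (edgeR adjusted p = 0.141).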

How the data were processed

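Both cochlear ducts of 1 embryo made 1 library, and the 3 embryos per genotype are separate animals. According to the methods and processing notes, the authors made TruSeq mRNA libraries, sequenced 50 base single reads, aligned them to mm10 with STAR, and used cutadapt 1.13, HTSeq 0.6.1p1, Cufflinks and DESeq2. The strand setting and annotation release of the counting are not given in the sources used here. The deposited values are raw counts per Ensembl gene, not normalized.

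Names, positions and exon lengths came from GENCODE M21 (the mm10 assembly), which named 54079 of the 54232 genes. Counts were tested with edgeR 4.0.16 in R 4.3.3 (TMM, filterByExpr with its minimum count of 10, quasi-likelihood test) for each genotype pair with its 6 libraries alone, and on all 9 for the allele trend and the midpoint contrast, with Benjamini-Hochberg adjustment over all tested genes. The procedure was tested on simulated data. Log2 CPM used a prior count of 2. The alternatives were DESeq2 1.42.0, RLE or no composition normalization, no filter or a mean count over 50, all 9 libraries in 1 fit, a replicate block and leaving out each embryo.

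Named genes are the 5 members, Prdm16, called genes of the lists, and the 5 nearest profiles of Clic6 and Clic5. For a list without calls, they are up to 3 genes of highest mean CPM over all 9 libraries. Outside this rule, chosen after their values were seen, are the neighbouring gene 2410124H12Rik, the Rcan and Runx genes, Ezr, Rdx, Atoh1 and Pou4f3, and the genes behind the choroid plexus sum. The lists are the other chloride channels, chloride transporters, ezrin family and bundle base genes, omega glutathione transferases, and markers of Kölliker's organ, prosensory domain, hair cells, roof, outer sulcus, mesenchyme, cartilage, endothelium, macrophages, neurons, glia, melanocytes and choroid plexus. Members and lists were chosen with earlier results of these data known. Libraries of 1 genotype all differed by more than counting error (mean chi-square at least 5.57 per gene).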

Additional observations from a re-analysis of the deposited data

How the results depend on the processing

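Clic6 was called lower in null than in WT and than in heterozygote ducts under all 7 alternatives that were planned and kept all embryos and in all 6 fits without 1 embryo (-1.88 to -1.65 and -1.68 to -1.47). Clic5 between null and WT was called in 6 of those 7 alternatives. It was not with the replicate block (-1.11, edgeR adjusted p = 0.0823), nor in 4 of 6 fits without 1 embryo (-1.26 to -0.88), nor without WT 2 and null 3 (-1.12). Between null and heterozygote Clic5 was called with no filter (-0.76, edgeR adjusted p = 0.00993) and by DESeq2 (-0.76).

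The midpoint contrast of Clic6 was called with no filter (0.70, edgeR adjusted p = 0.000163), and the cause was not tested. The sign of Clic4 turned in 3 of its 5 contrasts, not in heterozygote against WT or the allele trend. Between null and heterozygote it went from 0.01 to -0.01 without composition normalization, 0.00 at a mean count over 50 and -0.03 with the replicate block, and to between -0.25 and 0.18 without 1 embryo. Between null and WT its range without 1 embryo was -0.42 to 0.01, and its midpoint contrast ranged from -0.17 to 0.04. Clic3 between null and heterozygote ranged from -0.28 to 0.02. Trends without 1 embryo were 0.76 to 1.00 for Clic6, 0.43 to 0.60 for Clic5 and 0.01 to 0.21 for Clic4.

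The counts of called genes that serve as background moved more than the members. Genes higher and lower in null than WT, 158 and 135, became 267 and 209 with no filter, 67 and 68 with the replicate block, 329 and 280 in DESeq2, 260 and 208 with all 9 libraries, 52 and 66 without WT 2 and null 3, and 31 to 214 and 37 to 232 without 1 embryo, fewest without WT 2. In heterozygote against WT, 9 and 17 became 109 and 575 with no filter, 4 and 6 at a mean count over 50, 28 and 147 with the block, 54 and 244 in DESeq2, 0 and 0 with all 9 libraries, and 0 to 47 and 0 to 458 without 1 embryo, most without WT 3 and none without heterozygote 2 or 3. In null against heterozygote, 50 and 55 became 227 and 139 with no filter, 11 and 19 with the block, 195 and 165 in DESeq2, 79 and 85 with all 9 libraries, and 5 to 81 and 6 to 101 without 1 embryo, most without null 3. Same-numbered embryos had correlations of 0.00534, -0.142 and -0.284 between null and WT, and of 0.202, 0.112 and -0.0581 between heterozygote and WT. With 3 embryos per genotype these values cannot decide whether the numbers mark a shared litter or batch. Apart from Clic5 between null and WT, the block changed no call of a member.

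Shares of the family depend on the length used. With no length scaling the shares in WT, heterozygote and null ducts were 16.8, 17.8 and 31.3% for Clic1, 0.381, 0.542 and 0.728% for Clic3, 25.1, 25.0 and 36.8% for Clic4, and 8.48, 7.58 and 6.68% for Clic5, with 49.1% in heterozygote and 24.5% in null for Clic6. With the main transcript's length, a choice made after seeing the data, WT and heterozygote shares were 18.7 and 18.2% for Clic4, 4.44 and 3.89% for Clic5 and 40.2 and 39.3% for Clic6. Depth limits Clic3 most, at 41 to 84 reads per library.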
